A study of Brassica rapa with 5 samples.

Results

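The 200 genes described here were the most abundant transcripts of Brassica rapa leaves whose level stayed within 2-fold of normal supply under each of 4 disturbances of trace metal supply. They were chosen from the measured levels themselves. A level is the deposited TPM, tags per 1000000 clean tags. A change is log2 of (TPM + 1) under a treatment minus the same under normal supply. Of the 29183 genes listed in any table, 27442 had a change between -1 and 1 under all 4 treatments, and the 200 with the highest mean TPM over the 5 conditions were kept. The levels and changes that follow are therefore a description of the chosen genes, with no test, and a change under 2-fold holds by choice.

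Plants of accession R-o-18 grew in hydroponics for 14 days in a Cd-free solution of 3 µM Fe and 2 µM Zn. For 7 further days they stayed in this solution (normal supply) or were placed at 0.05 µM Fe (Fe deficiency), 0.005 µM Zn (Zn deficiency), 50 µM Zn (Zn excess) or 1 µM Cd (Cd exposure). Leaves of the first expanded pair were taken, and the labels give 3 replicates of 3 pooled plants for each condition. Each condition was deposited as 1 table of digital gene expression, which counts short sequence tags per gene. Its values, mostly whole tags divided by 3, were read as means of the 3 libraries, a step that no header states. All 5 conditions thus have 1 sample each, all plants are of 1 accession, and the 4 treatments share the normal supply table.

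Leaf messenger RNA is unevenly distributed, with a small number of genes holding a large part of it. In green leaves of plants in general, nuclear genes for photosynthesis and carbon fixation are known to be among the most strongly expressed. Iron is a cofactor of the photosystems, ferredoxin and haem proteins, zinc is held by carbonic anhydrase and many DNA-binding proteins, and cadmium is a toxic metal that binds thiol groups. Genes with steady levels across treatments are of practical use as internal references. The files name genes by identifier only, and none of the 200 identifiers matched the RefSeq gene table of the species (CAAS_Brap_v3.01), so no gene is given a function here. For the same reason the leaf label could not be checked against marker genes. In a bulk sample, fewer cells of a type and less RNA per cell cannot be told apart.

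Per condition, 25439 (Cd exposure) to 26284 (Zn deficiency) genes were listed, and 54.0% (Cd exposure) to 58.6% (Fe deficiency) of clean tags lay in genes. The TPM and tag columns weight the 3 libraries differently, and their mismatch gives 1 measure of the spread between libraries for each gene and condition (1 degree of freedom). This measure is called the library contrast below. It is written as a percentage of the level, estimates the coefficient of variation (CV) between libraries, and is positive where libraries with more tags had the higher level. In Zn deficiency, Zn excess and Cd exposure the library with the middle total hardly enters it (1.56% to 7.52% of the weight of the library with the highest total). Standard errors (SE) of changes come from these contrasts, moderated over the 10807 genes with a mean of at least 5 TPM with limma. They rest on the spread within conditions and not on the differences that chose the genes.

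All 200 genes were listed in all 5 tables. Their mean level ran from 269 to 18395 TPM with a median of 603 TPM, and 58 of them lay above 1000 TPM. The lowest number of tags behind any value was 2594 over the 3 libraries of a condition, for which counting error is a CV of 1.96%. Counting error is thus small against the spread between libraries, whose median CV over the 200 genes was 20.3%. No length correction enters these values. The order of genes is an order of tags, and whether it is also an order of molecules was not tested.

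**Figure D1:**
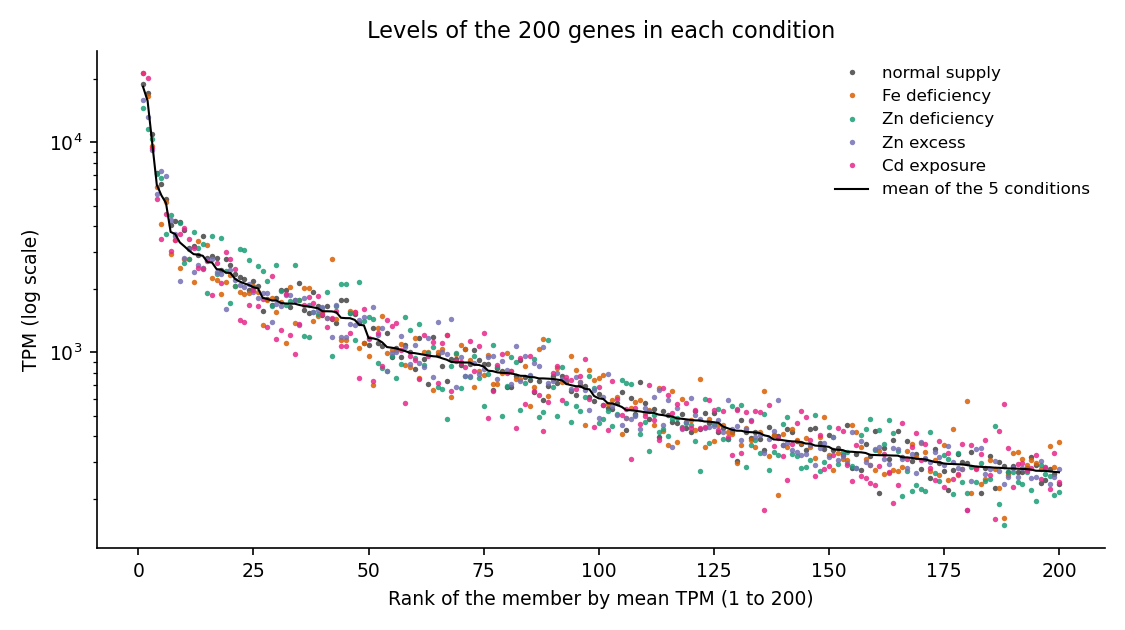
TPM (log scale) of each of the 200 genes in each of the 5 conditions, against its rank by mean TPM; points are conditions, each the mean of 3 libraries, and the line is the mean over conditions. Levels drop steeply over the first 10 ranks, from 18395 to 3198 TPM, and then slowly to 269 TPM.

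The most abundant gene, Bra028174, stood at 18973 TPM under normal supply, 21288 in Fe-deficient leaves, 14519 in Zn-deficient leaves, 15931 with excess Zn and 21266 with Cd. Bra028175, the next in abundance and named after its values were seen, stood at 17238, 16590, 11578, 13182 and 20196 TPM in the same order. Both were lowest under Zn deficiency and next lowest under Zn excess, and their ratio stayed between 1.05 and 1.28. The changes of Bra028174 were 0.17 (SE 0.28) in Fe-deficient leaves, -0.39 (SE 0.41) in Zn-deficient leaves, -0.25 (SE 0.34) with excess Zn and 0.16 (SE 0.24) with Cd, so all 4 were smaller than their own SE. Its library contrast was -84.3% in Zn deficiency, and that of Bra028175 was -92.6%.

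In Zn deficiency the contrast of these genes can be read almost directly as a difference between libraries. With the middle library set to the mean, Bra028174 stood at 23176 TPM in the library with the fewest clean tags and 5861 TPM in the one with the most. Bra028175 stood at 19163 and 3993 TPM in these libraries. The difference between these libraries of 1 condition was larger than any difference between the condition means. The third in abundance, Bra036240, had a contrast of -25.8% there and stood between 9206 TPM (Zn excess) and 10898 TPM (normal supply) in the 5 conditions. The tenth, Bra021649, stood at 3838 TPM under normal supply and 3894 under Cd exposure, against 2778 TPM under Fe deficiency, 2679 under Zn deficiency and 2802 with excess Zn. It was thus lower in these 3 treatments (changes of -0.47, SE 0.24, then -0.52, SE 0.35, and -0.45, SE 0.28).

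The 200 genes, under 1% of those listed, held 22.9% (Zn excess) to 24.4% (normal supply) of all clean tags. Of the tags that lay in genes they held 42.7% under normal supply, 39.4% in Fe-deficient leaves, 40.2% in Zn-deficient leaves, 40.8% with excess Zn and 42.9% with Cd. The SE of these shares was 1.496 to 1.63 percentage points, from the library contrasts of the share pooled over the conditions. The difference from normal supply was -3.30 percentage points under Fe deficiency (SE 2.21), -2.50 under Zn deficiency (SE 2.23), -1.94 with excess Zn (SE 2.24) and 0.197 with Cd (SE 2.30). These differences are within 2 SE. The exact 95% binomial interval, which covers counting error only, is at most 0.0635 points wide.

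Most of the uncertainty of the share lay in the 2 most abundant genes. They held 6.33% of gene tags under normal supply, 6.47% in Fe-deficient leaves, 4.52% in Zn-deficient leaves, 5.19% with excess Zn and 7.67% with Cd, with a relative SD between libraries of 45.0%. The other 198 genes held 36.4%, 33.0%, 35.7%, 35.6% and 35.3% in the same order, with a relative SD of 2.73%. Their share differed from that under normal supply by -3.43 points in Fe deficiency (SE 0.775). The library contrast of this share was 5.09% in Fe deficiency and between -2.54% and -0.595% elsewhere, so the pooled SD may make this SE too small. Without the 10 most abundant genes the difference was -1.66 points (SE 0.744), and for the 100 least abundant it was -0.096 points (SE 0.153). For the 198 genes the difference was -0.687 points in Zn deficiency (SE 0.805), -0.795 with excess Zn (SE 0.804) and -1.15 with Cd (SE 0.80). This division of the list was made after the spread of the first pair was seen, and these SEs miss most of what the middle library of 3 conditions adds.

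**Figure D2:**
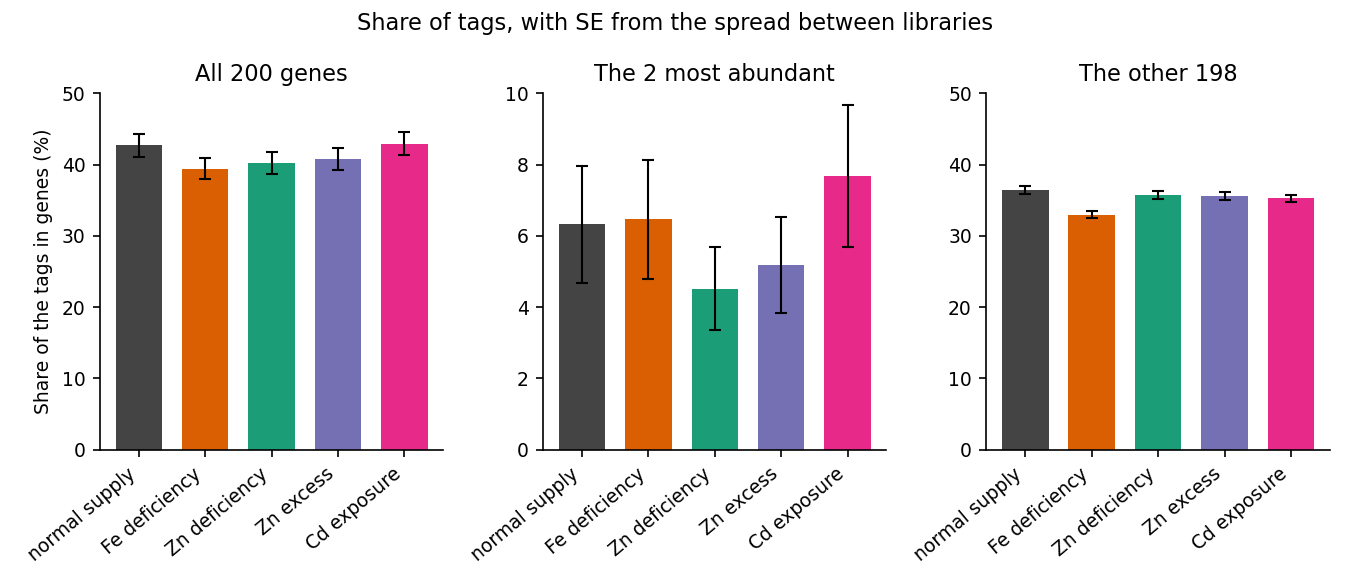
Share of the tags in genes (%) held by all 200 genes, by the 2 most abundant and by the other 198, per condition (bars), with the SE from the spread between libraries pooled over conditions. The wide bars of error belong to the first pair (4.52% to 7.67%), and the other 198 genes stand lowest under Fe deficiency (33.0%).

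Sums of TPM are relative to all clean tags and do not measure absolute amounts of RNA. The 200 genes summed to 244406 TPM under normal supply and to between 228795 TPM (Zn excess) and 232158 TPM (Zn deficiency) under the treatments. The differences had SEs of 15893 to 16003 TPM and were all smaller than these. The first pair differed from normal supply by 1667 TPM in Fe deficiency (SE 14157), -10114 in Zn deficiency (SE 12059), -7097 with excess Zn (SE 12553) and 5252 with Cd (SE 14872), each less than its SE. In Fe deficiency and with Cd the other 198 genes differed by -15061 and -17686 TPM (SE 5901 and 5864). In Zn deficiency and with excess Zn they differed by -2134 and -8514 TPM (SE 6087 and 5994). The sum over all genes was also lower with Cd, at 540253 TPM against 571830 TPM under normal supply. As a share of gene tags the 198 genes differed there by -1.15 points (SE 0.80). Genes less abundant than the 200 held 52.5% of gene tags under normal supply and 57.7% under Fe deficiency, 5.15 points more (SE 1.62). Their share was also higher with excess Zn, by 3.17 points (SE 1.59), in Zn deficiency by 1.31 (SE 1.56) and with Cd by 1.09 (SE 1.56).

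Smaller shifts were counted from 1.5-fold, beside the same count over the 10807 genes. As the choice of the 200 genes removed all larger changes, the comparison with that background carries no reading. Under Fe deficiency 11 of the 200 were at least 1.5-fold higher (12.8% of all genes) and 17 at least 1.5-fold lower (3.95%). Under Zn deficiency 10 were higher (10.7%) and 13 lower (6.48%). Under Zn excess 8 were higher (4.89%) and 10 lower (3.55%). Under Cd exposure 5 were higher (3.47%) and 26 lower (12.2%). Counted from a ratio of 5 to 4, 31 were higher (32.3% of all genes) and 41 lower (10.1%) in Fe deficiency, and 33 (23.4%) and 53 (21.4%) in Zn deficiency. The same counts were 28 (18.7%) and 29 (10.5%) with excess Zn, and 36 (13.3%) and 48 (27.6%) with Cd. Across treatments, 134 of the 200 genes passed 1.5-fold in no treatment, 39 in 1, 20 in 2, 7 in 3 and 0 in 4. Among the 9735 genes of at least 5 TPM within 2-fold, the shares were 66.5%, 26.0%, 6.35%, 1.05% and 0.0719%.

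These counts depend on scaling. The median of the 10807 genes was 0.17 higher on the log2 scale under Fe deficiency, and median-of-ratios size factors remove a shift of 0.18. With them 6 genes were higher and 32 lower under Fe deficiency, 6 and 12 with excess Zn, and 10 and 19 with Cd. Relative to the tags in genes, 11 were higher and 6 lower under Zn excess, and 10 and 19 under Cd exposure.

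The median change of the 200 genes was -0.03 in Fe-deficient leaves, -0.12 in Zn-deficient leaves, -0.05 with excess Zn and 0.01 with Cd. The median SE of a single gene was 0.20, 0.30, 0.23 and 0.17 in these treatments. The genes of at least 5 TPM that also stayed within 2-fold had medians of 0.16, -0.03, 0.07 and -0.05. In Fe deficiency the median of such genes was lower at each step of level, from 0.19 at 5 to 20 TPM, to 0.14 at 20 to 80 TPM, 0.05 from there up to 269 TPM and -0.03 in the 200 genes. It was also lower at each step in Zn deficiency (-0.0046, -0.06, -0.10 and -0.12) and with excess Zn (0.08, 0.07, 0.02 and -0.05). The steps under Cd exposure went from -0.08 to -0.02, 0.04 and 0.01. Relative to the size factors the median change of the 200 genes was -0.21 under Fe deficiency and 0.09 under Cd exposure.

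**Figure D3:**
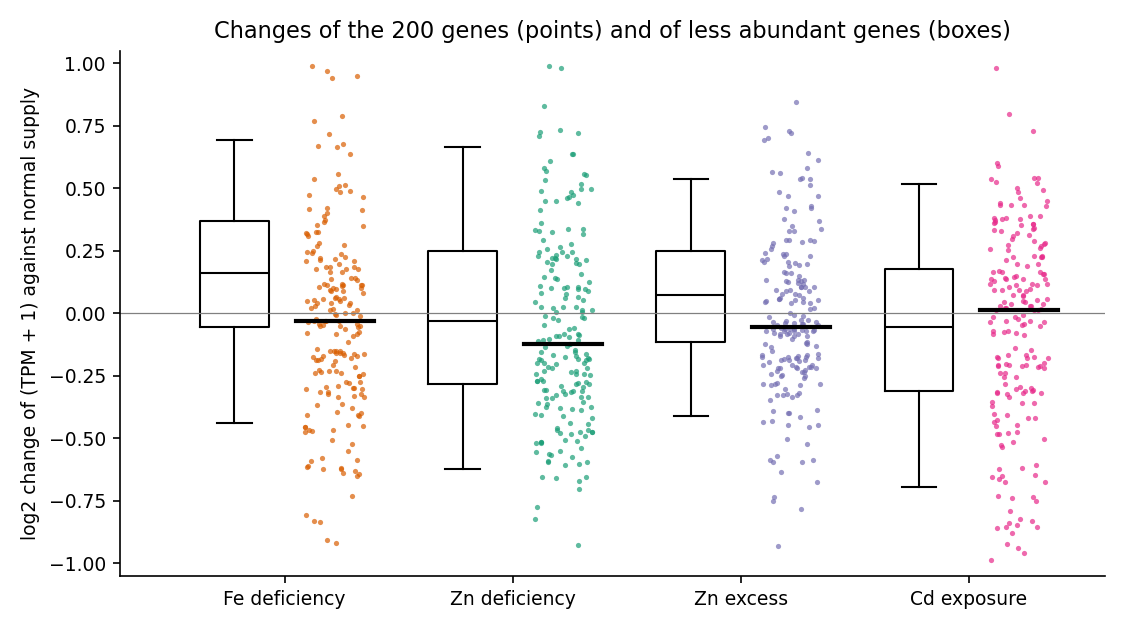
log2 change of (TPM + 1) against normal supply for the 200 genes (points, with the median as a bar) and for the 9535 other genes of at least 5 TPM within 2-fold (boxes: quartiles and median, whiskers from the 5th to the 95th percentile). Under Fe deficiency the bar lies at -0.03 and the middle of the box at 0.16; the limits at -1 and 1 come from the choice of genes.

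The genes lower under Cd exposure included abundant ones. Of the 26 that were at least 1.5-fold lower, 11 ranked among the 50 most abundant. These 11 include Bra021909 with Bra030181 and Bra015520 with Bra030660. Each of these pairs has nearly the same profile and may be 1 measurement. The sum of the 26 was 36113 TPM under normal supply and 21432 with Cd. It was 28206 in Fe-deficient leaves, 42153 in Zn-deficient leaves and 33592 with excess Zn. Under Cd exposure the sum of the 26 differed from normal supply by -14681 TPM. As these genes, and those grouped under Fe deficiency below, were picked by their own change, the direction of such sums follows from the choice. The 17 genes at least 1.5-fold lower under Fe deficiency summed to 24857 TPM under normal supply and 15437 TPM under Fe deficiency. Among them 5 ranked within the 50 most abundant, and these 5 include both Bra015520 and Bra030660. The 11 genes higher under Fe deficiency were less abundant, with a median of 342 TPM under normal supply and 657 TPM under Fe deficiency.

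The gene with the highest change in each treatment and that with the lowest are given here with all 5 levels, in the order normal supply, deficiency of Fe, deficiency of Zn, excess of Zn and exposure to Cd. Highest under Fe deficiency was Bra000734, at 297, 590, 214, 178 and 178 TPM, with a change of 0.99 (SE 0.28). It stood below normal supply in the other 3 treatments. Lowest under Fe deficiency was Bra019742, at 399, 210, 326, 596 and 394 TPM, with a change of -0.92 (SE 0.18). This gene was highest under Zn excess (0.58, SE 0.20), so the same gene lay on opposite sides of normal supply in these treatments.

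Highest under Zn deficiency was Bra011813, at 214, 340, 426, 354 and 289 TPM, with a change of 0.99 (SE 0.51). All 4 treatments stood above normal supply for this gene, and its library contrast reached 68.5% in Zn deficiency. Lowest under Zn deficiency was Bra008940, at 288, 164, 151, 236 and 570 TPM, with a change of -0.93 (SE 0.25). The same gene had the highest change under Cd exposure (0.98, SE 0.14). Its library contrasts lay between -7.10% and 10.7% in the 5 conditions, and it had the widest range over conditions of all 200 genes, 3.78-fold.

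Highest under Zn excess was Bra013653, at 592, 1159, 524, 1063 and 425 TPM, with a change of 0.84 (SE 0.34). Its change under Fe deficiency was 0.97 (SE 0.28), with a library contrast of -62.5% there. Lowest under Zn excess was Bra023176, the ninth in abundance, at 4190, 2525, 4136, 2199 and 3651 TPM, with a change of -0.93 (SE 0.24). It was also lower under Fe deficiency (-0.73, SE 0.21). Lowest under Cd exposure was Bra003645, at 384, 277, 413, 350 and 193 TPM, with a change of -0.99 (SE 0.25).

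Zn deficiency and Cd exposure were the conditions in which most of the 200 genes had an extreme level. Of the 200, 60 were highest under Cd exposure, 49 under Zn deficiency, 43 under Fe deficiency, and 24 each under Zn excess and normal supply. The lowest level was in Zn deficiency for 76 genes, Cd exposure for 54, Fe deficiency for 35, normal supply for 19 and Zn excess for 16. Among all 9735 genes of at least 5 TPM within 2-fold, 18.7% were highest and 37.3% lowest under Cd exposure, and 35.8% highest and 8.95% lowest under Fe deficiency. Under Zn deficiency 19.9% of them were highest and 32.8% lowest, against 24.5% and 38% of the 200 genes, so lows under Zn deficiency and Cd exposure were frequent among the other genes too. With size factors the order for the 200 genes differed, since 76 were then lowest under Fe deficiency and 58 under Zn deficiency, and 82 were highest under Cd exposure. Zn deficiency also had the widest spread between libraries, which can place a gene at an extreme; its part in these counts was not tested.

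**Figure D4:**
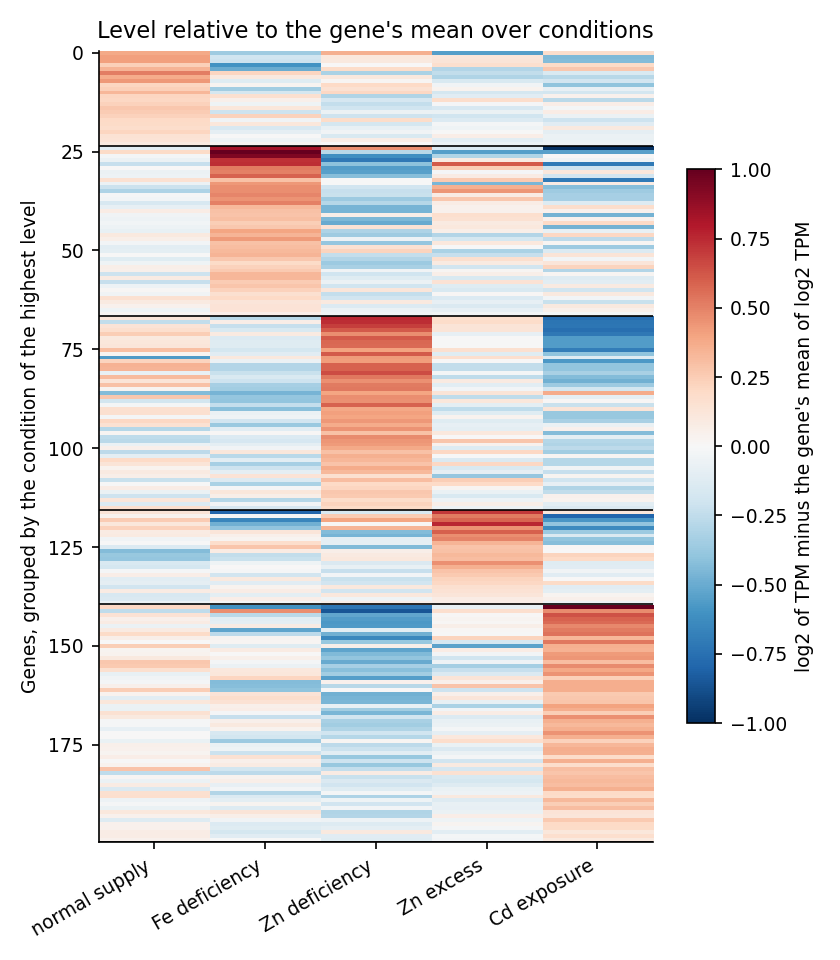
Each row is 1 of the 200 genes and each column a condition; colour is log2 of TPM minus the gene's mean of log2 TPM over the conditions, and rows are grouped by the condition of the highest level. The block of 49 genes highest under Zn deficiency has 41 genes below their own mean under Cd exposure, 41 under Fe deficiency, 29 under Zn excess and 18 under normal supply. The block of 60 genes highest under Cd exposure has 54 below it under Zn deficiency, 39 under Zn excess, 34 under Fe deficiency and 20 under normal supply. Grouping by the highest level lowers the other columns of a block by choice.

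Treatments were also set against each other, where the choice of genes allows differences of up to 4-fold. At least 1 of the 6 pairs of treatments differed 2-fold or more for 32 of the 200 genes (16%, against 15.3% of the 9735 genes). Zn deficiency against Cd exposure gave the most, with 12 genes at least 2-fold higher under Zn deficiency (10.4% of the 10807 genes) and 7 lower (2.79%). Fe deficiency against Zn deficiency gave 8 higher (3.16%) and 2 lower (2.1%). Zn excess against Cd exposure gave 5 higher (5.12%) and 1 lower (1.45%). Fe deficiency against Cd exposure gave 3 higher (9.78%) and 2 lower (1.76%), Fe deficiency against Zn excess 2 (3.74%) and 3 (1.21%), and Zn deficiency against Zn excess 0 (3.2%) and 3 (1.81%). The 10807 genes include those that the choice of the 200 removed, so the comparison with them carries no reading. Of the 9735 genes, 5.82% were 2-fold or more higher and 2.31% lower for Zn deficiency against Cd exposure. Fe deficiency against Zn deficiency gave 1.78% and 0.657%, and Zn excess against Cd exposure 2.33% and 0.586%. The other pairs, in the order above, gave 5.04% and 0.729%, 1.06% and 0.575%, and 0.74% and 1.05%. No test was made, as each condition is 1 table.

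With size factors the counts were 10 and 8 for Zn deficiency against Cd exposure, and the balance turned for Fe deficiency against Zn deficiency (4 higher and 11 lower) and against Cd exposure (3 and 11). The 12 genes higher under Zn deficiency than under Cd exposure summed to 13252 TPM under normal supply, 11477 in Fe-deficient leaves, 18505 in Zn-deficient leaves, 12952 with excess Zn and 7817 with Cd. That these genes lie on opposite sides of normal supply in these treatments follows from the choice of genes. Bra021909 and Bra030181, of nearly the same profile, are both among the 12. The 7 genes that stood the other way summed to 3444, 3515, 2208, 3551 and 5169 TPM in that order. The median size of their library contrast was 33.1% in Zn deficiency and 4.29% in Cd exposure, against 18.0% and 14.1% for the 12 genes.

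The steadiest gene was Bra013458, at 282 TPM under normal supply, 292 in Fe-deficient leaves, 271 in Zn-deficient leaves, 273 with excess Zn and 276 with Cd. Its highest level was 1.08-fold its lowest, and it was also the steadiest of the 200 with size factors (1.13-fold) and relative to the tags in genes (1.09-fold). Among the 9735 genes of at least 5 TPM within 2-fold it ranked 19 by the range of log2(TPM + 1). The tenth in stability, Bra024089, stood at 578, 617, 510, 507 and 599 TPM, a range of 1.22-fold. The 10 steadiest genes had mean levels from 273 to 9917 TPM and abundance ranks from 3 to 197, so steady genes were found from near the top to the end of the list. Only 5 of these 10 stayed among the 10 steadiest with size factors.

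A steady mean did not always come with close agreement of libraries. The CV between libraries, pooled over conditions, was 5.47% to 20.9% in the 10 steadiest genes and 13.5% in Bra013458. Bra034927, the next in stability and named after its values were seen, had the lowest CV between libraries of these 10. It stood at 1500, 1555, 1635, 1646 and 1520 TPM, a range of 1.10-fold, and its library contrast lay between 0.57% and 10.2%. It ranked 2 with size factors (1.19-fold) and 3 relative to the tags in genes (1.12-fold). Its tags were fractional in 3 conditions, so part of them may be shared with a similar gene. The same holds for Bra013458 in 3 conditions and Bra024089 in 5, and 7 of the 10 steadiest genes had fractional tags.

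Over the whole list the highest level was a median of 1.63-fold the lowest. Of the 200 genes, 14 stayed within a ratio of 5 to 4 over all 5 conditions (7.0%, against 6.53% of the 9735 genes), 75 within 1.5-fold (37.5% against 33.9%) and 168 within 2-fold (84.0% against 79.0%). No test was made of these differences.

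**Figure D5:**
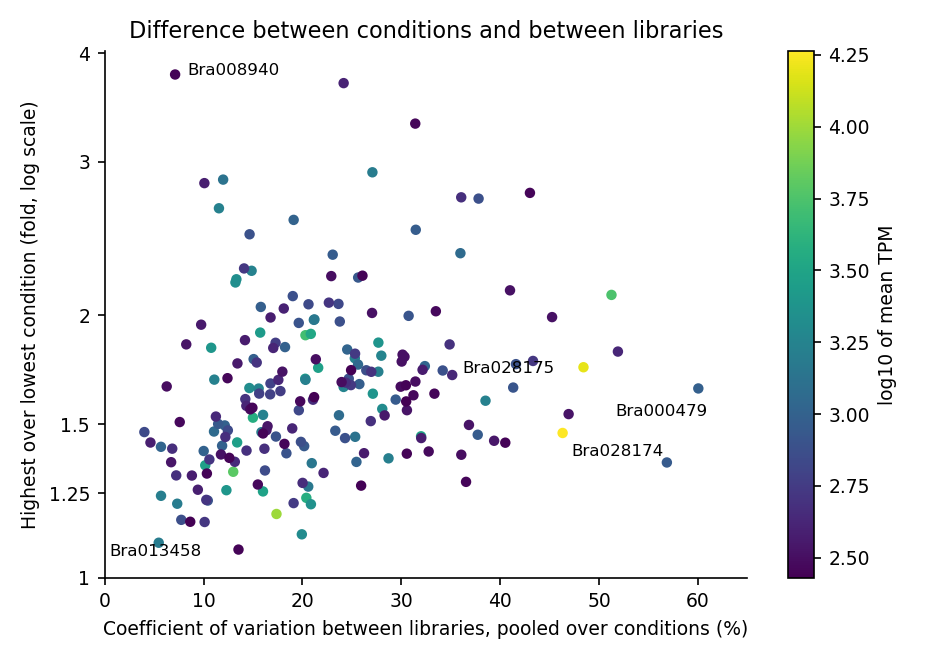
Fold between the highest and the lowest condition (log scale) against the CV between libraries pooled over conditions (%), for each of the 200 genes, coloured by mean TPM. Bra008940 combines a 3.78-fold range with a CV of 7.12%, Bra013458 has the smallest range at a CV of 13.5%, and the most abundant pair has CVs of 46.3% and 48.4%.

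The spread between libraries differed more between conditions than between levels, with a median pooled CV of 24.8% at 5 to 20 TPM and 20.3% in the 200 genes. The median size of the library contrast over the 200 genes was 9.46% under normal supply, 13.8% in Fe-deficient leaves, 24.7% in Zn-deficient leaves, 20.2% with excess Zn and 9.88% with Cd. The other genes of at least 5 TPM had 13.2%, 15.9%, 26.5%, 20.6% and 13.2%. In Zn deficiency 37 of the 200 genes had a contrast over 50% (18.5%, against 20.1% of the other genes), and 1 had under normal supply (0.5%, against 2.99%). The contrast was negative there for 129 of the 200 genes and with excess Zn for 116, and positive for 120 to 126 in the other 3 conditions. The widest spread was found for Bra000479, at 707, 1009, 992, 1166 and 959 TPM. Its pooled CV was 60.0%, and none of its 4 changes (0.44 to 0.72) was larger than 2 times its SE (0.39 to 0.68).

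The 50 genes with the smallest spread between libraries (CV of 4.01% to 14.2%) had a median range over conditions of 1.42-fold, and 7 of them ranged over 2-fold or more. The 50 with the widest spread (28.1% to 60.0%) had 1.66-fold, and 9 ranged over 2-fold. Bra019742 and Bra008940, with pooled CVs of 10.1% and 7.12%, belong to the first set. The 50 genes next above the smallest spread had a median range of 1.58-fold, and 6 ranged over 2-fold. The following 50 had 1.73-fold, and 10 ranged over 2-fold. The measure of spread hardly sees the middle library in Zn deficiency, Zn excess and Cd exposure. What part the spread between libraries has in these ranges was not tested.

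Tags shared between similar genes limit what single values mean. At least 95 of the 200 genes (47.5%, against 37.5% of the 10807 genes) had fractional tags in 1 or more conditions, which is the form of tags divided among several matching genes. 3 pairs of members had the same profile within 0.02 on the log2 scale, namely Bra021909 with Bra030181, Bra015520 with Bra030660 and Bra012282 with Bra017920. Their library contrasts differed by at most 1.01 percentage points, and their mean levels by at most 0.03 on the log2 scale, so each pair may be 1 measurement rather than 2. These pairs were chosen after their values were seen. 4 pairs of members had consecutive identifiers, among them the most abundant pair, whose contrasts ran closely together in Zn deficiency and Zn excess (-50.1% and -46.6%).

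The limits of the list fell within a dense run of genes. Bra002973, the last but one by mean level, had 270 TPM, and Bra029702, the next but one after the list ends, had 266 TPM. The member nearest to the 2-fold limit was Bra011813 (0.99 under Zn deficiency), and the third nearest was Bra003645 (-0.99 under Cd exposure). Just outside lay Bra034245, at 200.8 TPM under normal supply and 403 under Fe deficiency (1.00), and the third nearest outside was Bra026099, at 1401 and 672 TPM (-1.06). SEs at these genes were 0.21 to 0.51, wider than their distance from the limit.

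Beside the 200 genes, 33 genes were as abundant but differed 2-fold or more under at least 1 treatment. In Fe deficiency 5 of them were higher and 15 lower by that measure, in Zn deficiency 5 and 1, in Zn excess 1 and 9, and in Cd exposure 0 and 13. As these genes were picked by such a change, and no share over all genes stands beside the counts, the counts carry no reading. These 33 genes held 4.72% of gene tags under normal supply, 2.88% in Fe-deficient leaves, 5.91% in Zn-deficient leaves, 3.495% with excess Zn and 3.44% with Cd. The differences from normal supply were -1.85 points (SE 0.578), 1.19 (SE 0.791), -1.23 (SE 0.614) and -1.29 (SE 0.611) in the order of the treatments. They too follow in part from the choice of these genes.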

How the data were processed

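Leaf RNA of 5 conditions was measured in digital gene expression libraries, 3 per condition per the labels' protocols. Per the file headers, the deposited tables give clean tags and TPM per gene. The clean tags are estimated counts that need not be whole, and the deposited TPM is tags per 1000000 clean tags. On the mapping tool and genome build, nothing is given in the sources used here. Missing genes were set to 0. A pseudocount of 1 TPM was used.

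The genes with 1 tag in 1 library gave the clean-tag totals of the 3 libraries of a condition (5575674 to 5997199), and with them the library contrast. Squared contrasts were divided by their running mean over 201 genes of similar level, averaged over conditions and moderated by the squeezeVar function of limma 3.58.1 under R 4.3.3, giving 12.4 degrees of freedom. A gene whose spread is wider in 1 condition than in others has an SE that is too small there. The steps were tested on simulated data. Replicates may differ technically or by plants, and each pools 3 plants. The SE of a log2 change is an approximation where the CV is large.

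The members and lists were chosen with earlier results of these data known. The gene groups planned by function could not be formed, since no identifier matched. Named genes are, by a rule set with the design, the first and last of the 10 most abundant, the 10 steadiest, the extremes of each treatment and the genes beside each limit, and the gene with the widest spread between libraries. Python 3.11.15 and scipy 1.17.1 were used.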

Additional observations from a re-analysis of the deposited data

How the results depend on the processing

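Of 149 values recomputed under other settings, 98 stayed within the spread between libraries or, for counts, within 1.5 times. Part of this agreement was fixed in advance. Leaving out the minimum level could alter none of the values, and a minimum of 20 TPM could alter only the shares. Neither of the other scalings could alter the shares. Median changes were judged by the median SE of a single gene (0.17 to 0.30), which is not the spread of a median over a list. All of them counted as within the spread by this wide measure. Under Fe deficiency this includes a median of -0.21 with size factors against -0.03 as reported. The count of 98 is therefore no evidence that the medians are steady. Values are in the order normal supply, deficiency of Fe, deficiency of Zn, excess of Zn and exposure to Cd, and counts past 1.5-fold in the order of the 4 treatments. With only genes of at least 20 TPM in the total, the shares of gene tags were 50.4%, 47.8%, 47.9%, 48.9% and 50.6%. With 100 genes they were 36.1%, 32.9%, 33.9%, 34.0% and 35.8%, and 14, 11, 10 and 17 genes passed 1.5-fold. With 400 genes they were 49.6%, 46.2%, 46.9%, 47.9% and 50.3%, and 52, 49, 37 and 53 passed. With a limit of 1.5-fold they were 33.3%, 32.1%, 29.9%, 31.8% and 35.5%, and by construction 0 passed in each treatment. Counted from a ratio of 5 to 4, 72, 86, 57 and 84 passed. Among genes without fractional tags the shares were 25.4%, 24.3%, 23.7%, 24.8% and 26.2%, and 19 genes passed under Cd exposure. Without the 2 most abundant genes, chosen after the data were seen, the shares were 36.4%, 33.0%, 35.7%, 35.6% and 35.3%. Of the 10 steadiest genes, 5 stayed so with size factors, 6 with 100 genes, 6 with 400 genes and 3 among genes without fractional tags. Lists of another length or kind hold other genes, and for size factors the cause was not tested. The median change under Fe deficiency was 0.03 with a limit of 1.5-fold and 0.03 among genes without fractional tags, and that under Cd exposure was -0.03 with 100 genes. Of 272 changes of named genes, 271 stayed within 1 SE, and 9 took the other sign, all under the other scalings. Most of this agreement was also fixed in advance. Pseudocounts of 0.1 and 5 TPM can hardly alter changes at these levels. The other scalings move all genes of a treatment by nearly the same step. The steps that size factors remove were 0.18, 0.0048, 0.075 and -0.082 in the order of the 4 treatments. No paired analysis was possible because no table holds single replicates, and none could therefore be left out in turn.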
